A study of Arabidopsis thaliana with 6 samples.

Results

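The Aux/IAA and ARF families of Arabidopsis thaliana form the transcriptional core of the auxin response, and binding of the MADS-domain protein FRUITFULL (FUL) was described here around each of their genes. Members were the genes of the TAIR10.1 RefSeq table whose symbol or synonym was IAA1 to IAA34 (Aux/IAA) or ARF1 to ARF23 (ARF). This gave 52 of 27444 protein-coding genes, 29 Aux/IAA genes and 23 ARF genes. ADP-ribosylation factor genes, which carry the same abbreviation, were left out (2 genes), and MP, NPH4 and ARF19, which also carry an IAA synonym, were counted as ARF genes.

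FUL-GFP, expressed from the FUL promoter (pFUL:FUL-GFP), was precipitated with anti-GFP beads and its DNA was sequenced (ChIP-seq). Pistils of stages 12 to 16 came from pFUL:FUL-GFP ful-1 plants. Uninduced inflorescence meristems (IM) came from plants 4 to 5 weeks old that carried pFUL:FUL-GFP, the 35S:AP1-GR transgene (driven by the broadly active 35S promoter) and the mutations ap1-1 and cal-1, with no ful mutation named. Plants of both tissues were of a Ler/Col F2 background, grown under 16 h of light at 21 °C. For either tissue the ChIP was done on 2 replicates beside 1 input library. What was analysed is the authors' list of peaks for pistil (3494 peaks) and for IM (3650 peaks), each with the replicates pooled. Coordinates are on TAIR10, and the fold of a peak is the authors' enrichment ratio at its summit. There is therefore no error across replicates, no test between tissues or families, and the read depth is unknown. Tissue, mutant background and transgene differed together and cannot be told apart. No expression was measured, so the tissue labels were not checked against markers.

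ARF proteins bind auxin response elements in promoters and activate or repress transcription, while Aux/IAA proteins bind ARF proteins and recruit corepressors of the TOPLESS family. Auxin joins Aux/IAA proteins to the F-box receptors TIR1 and AFB through a short degron, which leads to their breakdown and frees the ARF proteins. Several Aux/IAA genes are themselves switched on by auxin, which closes a negative feedback loop. In the shoot the system places flower primordia, and in the pistil it patterns the gynoecium and takes part in fruit set.

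A member was counted as having a FUL peak when the summit lay inside the gene or within 3 kb of either end. This position does not show regulation. Of the Aux/IAA genes, 18 of 29 had a pistil summit and 15 of 29 an IM summit (62.1% and 51.7%). ARF genes had a pistil summit in 9 of 23 cases and an IM summit in 10 of 23 (39.1% and 43.5%). Over all protein-coding genes the shares were 21.3% for pistil and 23.7% for IM. Among genes of like length (the middle range between the quartiles of each family) they were 21.6% and 24.3% for the Aux/IAA range and 24.7% and 28.3% for the longer ARF genes. Both families thus stood above the shares of all genes in both lists.

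Summits in both lists were found at 19 of the 52 members, against 15.3% of all genes. Another 8 members had a summit in the pistil list only (background 6.01%) and 6 in the IM list only (8.36%). The remaining 19 had none in either list (70.3% of all genes). By family, 11 Aux/IAA and 8 ARF genes were in both lists, 7 and 1 in the pistil list only, 4 and 2 in the IM list only, and 7 and 12 in neither. No summit was counted for more than 1 member: 34 pistil and 35 IM summits lay near the 52 genes.

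Among the ARF genes, a group of related genes on chromosome 1 stood apart. ARF12, ARF13, ARF14, ARF15, ARF20, ARF21, ARF22 and ARF23, of which ARF23 is a truncated copy, had 0 of 8 members with a summit in either list. Without them, 9 of 15 ARF genes had a pistil summit and 10 of 15 an IM summit (60.0% and 66.7%), so the Aux/IAA share was 2.07 percentage points above that of the ARF genes in pistil and below it in IM. Leaving the group out was chosen after its values were seen. Of these 8 genes, 7 lay in a stretch of 0.668 Mb where peaks were sparse in general. It held 4 pistil summits and 6 IM summits, or 5.99 and 8.98 per Mb, against 29.3 and 30.6 per Mb over the 5 chromosomes. Among all 117 protein-coding genes of the stretch, 6 had a pistil summit and 9 an IM summit (5.13% and 7.69%).

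**Figure D1:**
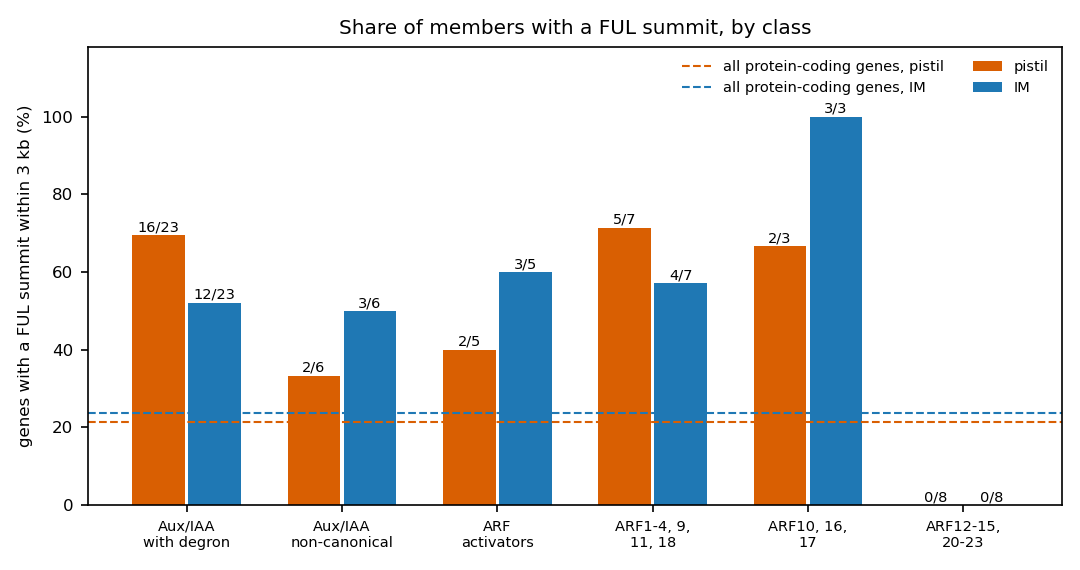
Bars show the share of genes (%, y axis) in each class of Aux/IAA and ARF genes with a FUL summit within 3 kb, in the pistil list and in the IM list, with the number of genes above each bar and dashed lines at the share over all protein-coding genes (21.3% for pistil, 23.7% for IM). The 8 ARF genes of the chromosome 1 group had no summit, while every other class stood above the dashed line of its list.

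The classical Aux/IAA proteins carry the degron that binds TIR1, and 16 of these 23 genes had a pistil summit and 12 an IM summit. The highest fold of all members belonged to IAA4 (ATAUX2-11), one of the first auxin-induced genes described. Its pistil peak (chromosome 5, 17549491 to 17550924) had its summit inside the gene, with a fold of 13.2 and a −log10 p of 606, which put it at rank 19 of the pistil list. The IM peak at IAA4 (17548836 to 17550655) had its summit 55 bp outside the gene and a fold of 5.45, at percentile 85.4 of its own list. A percentile here is the share of a list's peaks with a fold no higher than that of the peak. The 2 summits were 85 bp apart, so both lists placed FUL at the same end of IAA4.

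IAA12 (BODENLOS), which restrains the ARF protein MP in the embryo, came next among the Aux/IAA genes. Its pistil peak (chromosome 1, 1242562 to 1243705) had a fold of 10.004 at percentile 96.1, with the summit 1132 bp from IAA12 and inside the neighbour AT1G04555. The IM list held no summit within 3 kb of IAA12, and the closest lay 3822 bp away on its other side. That site was in the pistil list too, with a summit 3814 bp away and 8 bp from the IM one. IAA19 (MASSUGU2), a gene of hypocotyl bending, was also marked in pistil only. There it had a summit on each side, 410 bp away with a fold of 7.27 (chromosome 3, 5265719 to 5266668) and 441 bp away with a fold of 4.65 (5263148 to 5264260).

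IAA27 (PAP2) had the highest IM fold of the Aux/IAA genes, 6.89 at percentile 95.7 (chromosome 4, 14324871 to 14326821, summit 112 bp away). In pistil the same site had a fold of 4.80 at percentile 63.7 (14325168 to 14327117), with its summit 69 bp from the IM one. A second IM peak with a fold of 3.49 (14321376 to 14322227) had its summit on the other side of IAA27, 30 bp from AT4G29070, and no partner in the pistil list. IAA9 and IAA8 belong to 1 branch with IAA27, and silencing of the IAA9 gene of tomato gives fruit without fertilisation. IAA9 had folds of 4.52 in pistil (chromosome 5, 26252721 to 26253896) and 4.81 in IM (26252819 to 26253988), with summits 204 bp outside and inside the gene. IAA8 had folds of 4.36 in pistil (chromosome 2, 9635173 to 9636623) and 3.08 in IM (9635070 to 9636353), 483 and 636 bp away. At IAA27, IAA9 and IAA8 the peaks of both lists overlapped.

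Of the classical members best known from dominant mutants that resist auxin, IAA17 (AXR3) had a peak 1486 bp away in pistil, with a fold of 5.72 (chromosome 1, 1133552 to 1135129), and 1503 bp away in IM, with a fold of 3.59 (1133979 to 1135292). IAA3 (SHY2), which limits the root meristem, is the next protein-coding gene, 6388 bp from IAA17. It had a separate pistil peak inside the gene with a fold of 3.98 and no IM summit within 3 kb. IAA14 (SOLITARY ROOT), which blocks lateral root founding, had a pair of sites found in both lists. The first (chromosome 4, 8345258 to 8345950 in pistil, 8345165 to 8346495 in IM) had folds of 4.39 and 4.53, but NF-YB3 lay closer to it, at 288 and 296 bp. The second had folds of 2.95 (8351863 to 8353394) and 3.55 (8352030 to 8353431). Its summits lay 2796 and 2773 bp from IAA14, on the side of IAA1, the adjacent protein-coding gene 10732 bp from IAA14. IAA1 itself had no summit within 3 kb.

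IAA7 (AXR2) and IAA2 are likewise neighbours, 12510 bp apart with no protein-coding gene between them, and this locus was marked in pistil only. IAA2 had a pistil summit inside the gene (fold 3.09) and another 891 bp away (3.52). IAA7 had summits 1607 bp away on 1 side (3.19) and 628 bp away on the other (3.64). All 4 folds lay below the pistil median of 4.10. A stronger pistil peak stood between the genes, 4267 bp from IAA7, with a fold of 6.24 (chromosome 3, 8189729 to 8190766), outside the window. The closest IM summits lay 11857 bp from IAA2 and 25817 bp from IAA7.

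Of the other degron-bearing genes in both lists, IAA16 had its shared site 188 bp away in pistil (chromosome 3, 1290129 to 1293150) and 116 bp away in IM (1290121 to 1292421), with folds of 3.81 and 3.01, and a further pistil summit inside the gene at 3.42. IAA13, the closest relative of IAA12, shared a site 2948 bp away in pistil and 2961 bp away in IM (chromosome 2, 14118728 to 14119425 and 14118343 to 14119517), with folds of 3.69 and 3.53. AT2G33320 lay nearer to that site. A second IM summit lay 1268 bp from IAA13 with a fold of 3.097. At IAA26 (PAP1), a phytochrome-associated protein, a broad peak was found in both lists (chromosome 3, 5614124 to 5616614 in pistil, 5613951 to 5616984 in IM), with folds of 4.23 and 4.36. Its summits stood 1686 bp apart, 91 bp from IAA26 in pistil and 1777 bp away in IM. IAA26 also had IM summits inside the gene (2.89) and 1503 bp away (3.52).

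Among the classical genes marked in 1 list, IAA6 (fold 3.84, 426 bp away) and IAA29 (3.11, 2600 bp away) were in the pistil list only. CDT1, a small cadmium tolerance gene, was closer to the IAA6 summit, at 29 bp. IAA15, IAA18 and IAA28 were in the IM list only. IAA15 had a peak of 4305 bp, the widest of all members' peaks, with its summit inside the gene and a fold of 3.79 (chromosome 1, 30221345 to 30225649). IAA18, which acts in the embryo, had summits inside (3.16) and 2493 bp away (3.52). At IAA28, a lateral root gene, the fold was 3.59 at 831 bp, inside the gibberellin synthesis gene GA3. IAA5, IAA10, IAA11 and IAA1 had none, although an IM peak with a fold of 5.42 inside AT1G15600 was 3670 bp from IAA5.

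The non-canonical Aux/IAA proteins lack the degron or carry a changed one. IAA20 and IAA31 were in both lists, IAA32 in the IM list only, and IAA30, IAA33 and IAA34 in neither. IAA20 shared its site between the lists (chromosome 2, 19308401 to 19310308 in pistil, 19308337 to 19310370 in IM), with folds of 5.25 and 4.95. The summits lay 842 and 760 bp from IAA20 and inside ABCB4, an auxin transporter gene. IAA31 was the only member called in both lists at different sites. Its pistil peak (chromosome 3, 6021017 to 6021847) was 369 bp away on 1 side with a fold of 3.58, and its IM peak (6019370 to 6020150) 227 bp away on the other with a fold of 3.54. BSH lay 22 bp from the IM summit. IAA32, which has been placed in apical hook growth, had an IM fold of 3.06 at 2697 bp. For IAA30, a site of both lists with folds of 5.13 and 6.11 fell outside the window, at 4396 and 4351 bp.

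**Figure D2:**
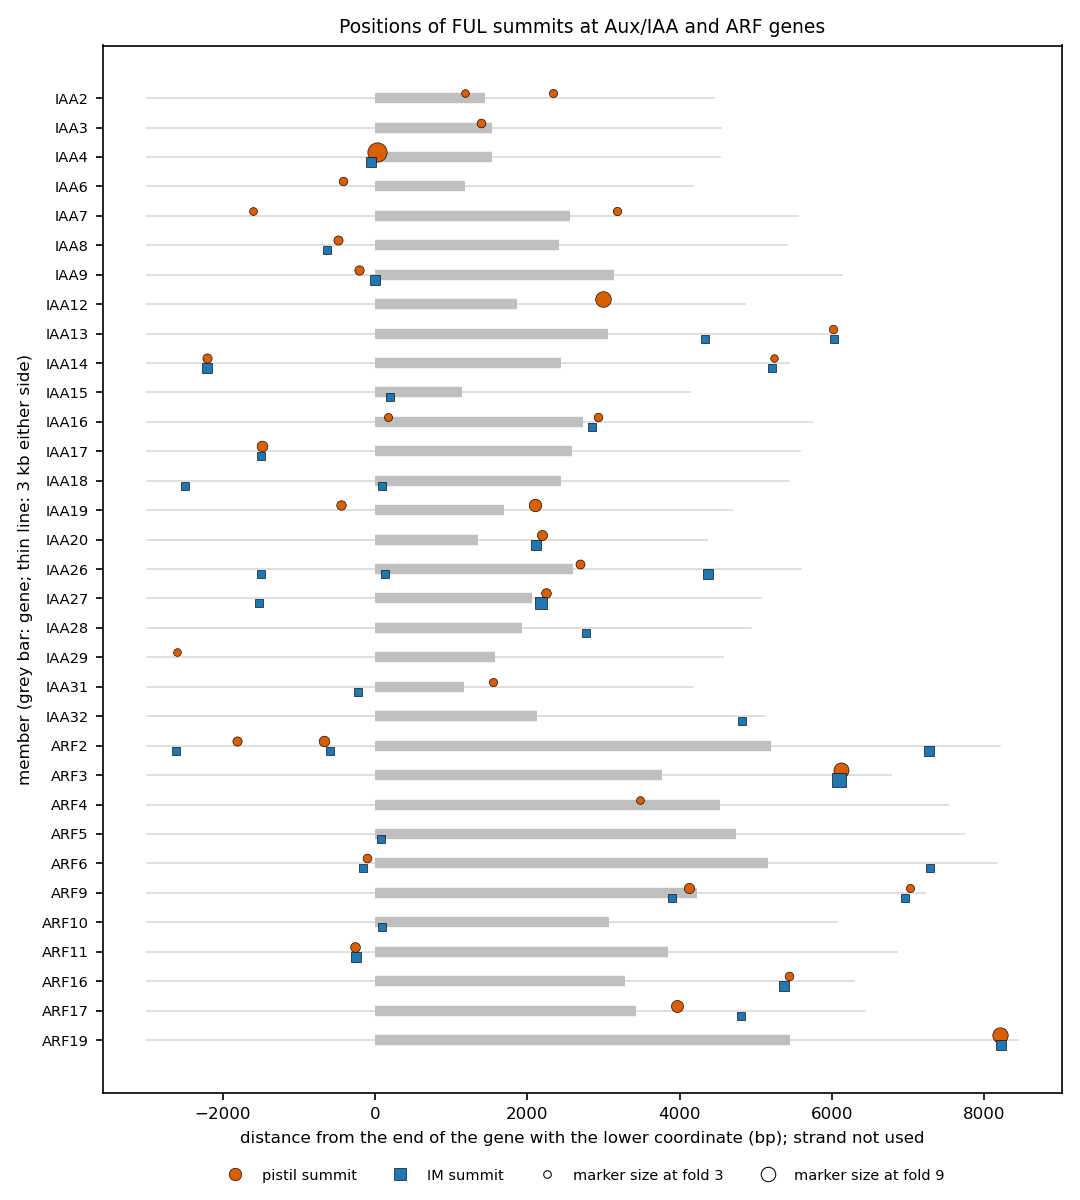
Each row is an Aux/IAA or ARF gene with at least 1 summit: the grey bar is the gene, the thin line the 3 kb on either side, and the x axis the distance in bp from the end of the gene with the lower coordinate, without regard to strand. Circles mark pistil summits and squares IM summits, with marker size growing with the fold. At most members of both lists the circle and the square stand at the same place, while IAA31 has them on opposite sides.

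ARF proteins with a glutamine-rich middle region activate transcription, and of these 5 genes 2 had a pistil summit and 3 an IM summit. ARF19, which acts in root branching, had the highest pistil fold of the ARF family, 9.83 at percentile 95.7 (chromosome 1, 6634441 to 6636283, summit 2756 bp away). The IM peak at the same site had a fold of 4.80 at percentile 76.9 (6634444 to 6636221, 2772 bp away), with its summit 16 bp from the pistil one. ARF7 (NPH4), its partner in that process, had no summit within 3 kb. A peak of both lists stood 4547 bp from ARF7 in pistil (fold 2.87) and 4743 bp away in IM (3.99). ARF5 (MP), which starts flower primordia, was in the IM list only, with a summit inside the gene and a fold of 3.68. ARF6, which matures petals, stamens and gynoecia together with ARF8, had a site 109 bp away in pistil (chromosome 1, 10683850 to 10686105) and 161 bp away in IM (10683785 to 10686255), with folds of 4.02 and 3.795. A further IM summit stood 2128 bp from ARF6 with a fold of 3.77. ARF8 had none, and the closest summits to it lay 247579 bp away in pistil and 19491 bp away in IM.

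ETT (ARF3), which patterns the gynoecium along its length, had the strongest IM peak of all members. In pistil the peak (chromosome 2, 14330725 to 14332708) had a fold of 9.54 at percentile 95.1 and a −log10 p of 316. The IM peak (14329817 to 14333546) had a fold of 8.91 and rank 11 of 3650, with a −log10 p of 192. The summits lay 2352 and 2327 bp from ETT, 25 bp apart, with no protein-coding gene closer. ETT was thus near the top of both lists. ARF4, its closest relative, with which it acts in leaf and carpel polarity, had a pistil summit inside the gene at a fold of 3.19, at percentile 14.5, and no IM summit within 3 kb.

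ARF2, a repressor known for its effect on seed and organ size, had several sites. The nearest was shared by the lists (chromosome 5, 24908878 to 24910799 in pistil, 24909129 to 24910598 in IM), with folds of 5.63 and 3.75 at 670 and 587 bp. A site farther out on the same side had folds of 4.40 in pistil and 3.51 in IM, with summits 796 bp apart. In the IM list alone, a peak inside HSFB2A stood 2078 bp from the other end of ARF2, with a fold of 4.51. ARF9 had a site inside the gene in both lists (chromosome 4, 12454727 to 12456318 in pistil, 12454725 to 12456381 in IM), with folds of 5.35 and 3.99, and a second one inside CSLG3 with folds of 3.51 and 3.06. At ARF11 the summits stood 264 bp away in pistil and 251 bp away in IM (chromosome 2, 19103866 to 19104786 and 19103902 to 19104987). The folds were 4.87 at percentile 65.2 and 5.95 at percentile 89.9. ARF1 and ARF18 had none, and the site nearest to ARF18 lay 4176 bp away in pistil and 4141 bp away in IM, with folds of 6.20 and 3.31.

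ARF10, ARF16 and ARF17, whose transcripts are cut under guidance of miR160, all had an IM summit, and ARF16 and ARF17 also a pistil summit. ARF17, needed for the pollen wall, had a pistil peak 537 bp away with a fold of 6.91 (chromosome 1, 29275486 to 29276493) and an overlapping IM peak 1371 bp away with a fold of 3.399 (29275661 to 29277266). The summits stood 834 bp apart, and AT1G77855 was nearer to the IM one. The site of ARF16, a root cap gene, was 2149 bp away in pistil and 2080 bp away in IM (chromosome 4, 14707541 to 14708833 and 14707507 to 14708909), with folds of 3.94 and 4.54. AT4G30090 lay nearer to it. ARF10 had a summit inside the gene in IM only, with a fold of 3.03 at percentile 13.8.

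**Figure D3:**
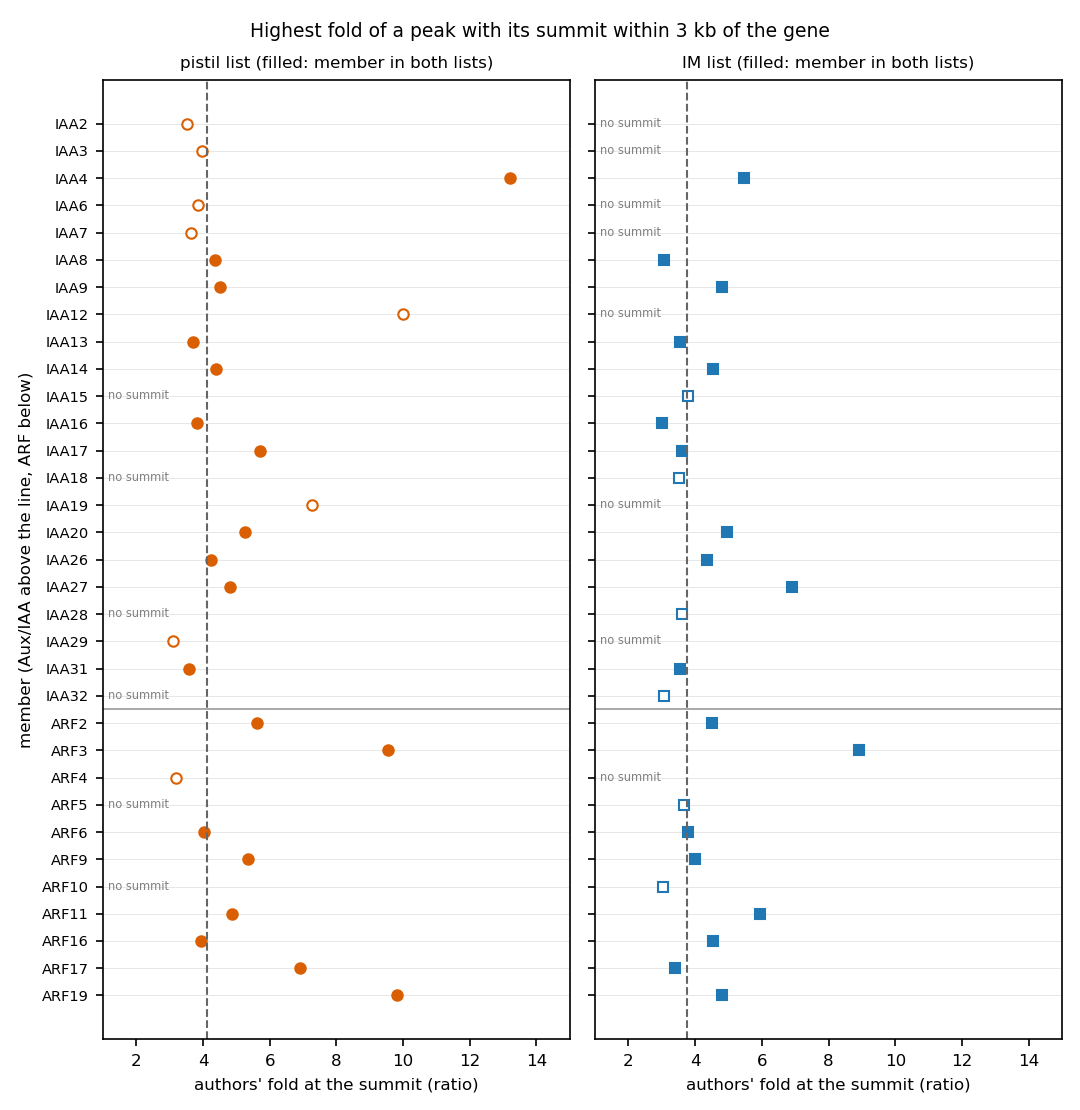
Highest fold at a summit within 3 kb (x axis, ratio) for each Aux/IAA and ARF gene that had one, in the pistil list on the left and the IM list on the right. Dashed lines mark the median fold of each list (4.10 and 3.77), and open symbols mark members found in that list only. IAA4 leads in pistil at 13.2 and ETT (ARF3) in IM at 8.91.

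Across members, the peaks were of ordinary strength for their lists. The highest fold per gene was above the list's median at 16 of 27 members with a pistil summit and at 14 of 25 with an IM summit, while over all genes with a summit this held for 54.5% and 54.6%. The median of that highest fold was 4.29 for Aux/IAA and 5.35 for ARF genes in pistil, against 4.32 over all genes with a summit. In IM it was 3.59 for Aux/IAA and 4.25 for ARF genes, against 3.896. Folds above percentile 95 of the list belonged to IAA4, IAA12, ARF19 and ETT in pistil and to ETT and IAA27 in IM. These were also the only members' peaks in the top 10% of their list by fold, 4 of 34 in pistil and 2 of 35 in IM. When only folds above the list's median were counted, 10 Aux/IAA and 6 ARF genes remained in pistil (34.5% and 26.1%, against 11.6% of all genes). In IM 7 of each remained (24.1% and 30.4%, against 12.9%), so the order of the families in IM turned round.

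Sites found in both lists were placed closely. Of the 19 members with a summit in each list, 18 had overlapping peaks, at 21 pairs of peaks, and the summits of a pair lay a median of 69 bp apart (8 to 1686 bp). In 15 of the 21 pairs the gap was at most 100 bp. Gaps were taken only between overlapping peaks. Neither the gap nor the overlap by gene was computed over all genes in both lists. Close placement was therefore not shown to be particular to these members. Within the lists, 21 of 34 pistil peaks and 21 of 35 IM peaks near members overlapped a peak of the other list (61.8% and 60.0%), close to the shares over whole lists, 63.4% and 59.5%. A summit stood inside 6 of the 52 members in pistil (3.25% of all genes) and inside 7 in IM (3.88%). Among genes with a summit within 3 kb, this was 6 of 27 members against 15.2% of all such genes in pistil. In IM it was 7 of 25 against 16.4%. The member was the protein-coding gene nearest to the summit for 25 pistil and 22 IM peaks, so in the others a different gene lay closer. Counted by gene, 21 of the 52 members were nearest to a pistil summit within 3 kb and 19 to an IM summit. Of all protein-coding genes, 10.8% and 11.8% were. At least 2 summits within 3 kb were found at 7 members in pistil (3.34% of all genes) and at 8 in IM (3.55%). Among genes with a summit, that was 7 of 27 members against 15.7% in pistil and 8 of 25 against 15.0% in IM. ARF2, ARF9 and IAA14 had at least 2 in both lists.

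Absence from a list depends on where the list ends. The lowest −log10 p was 34.4 in the pistil list and 22.4 in the IM list. Of the 6 members in the IM list only, IAA15, IAA28 and ARF5 had an IM peak above the pistil limit (39.2, 37.2 and 47.4). The IM peaks of IAA18, IAA32 and ARF10 were below it (32.8, 27.8 and 24.6). A limit on p is not a limit on fold. For example, an IM peak of IAA18 with a fold of 3.52 fell below it, while a pistil peak of IAA14 with a fold of 2.95 lay above it. With the pistil limit applied to both lists, 18 Aux/IAA genes kept a pistil summit and 10 an IM summit, with 9 and 8 ARF genes. The IM shares of the families were then 34.5% for Aux/IAA and 34.8% for ARF genes, against 16.1% of all genes.

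Calls were also compared between close relatives. In 15 pairs of sister genes, taken from common knowledge of the family trees after the calls were known, both genes had a pistil summit in 6 pairs, 1 gene in 7 and neither gene in 2. In IM the counts were 3, 9 and 3. IAA8 and IAA9 were in both lists, IAA6 and IAA19 in the pistil list only, and IAA10 and IAA11 in neither. In the other 12 pairs the calls were unlike, so 3 of 15 sister pairs had the same call, against 29.0% of all 1326 pairs of members. The 15 pairs held no gene of the chromosome 1 ARF group. Its 8 genes, all in neither list, share 1 call and do count among all pairs, so the 2 shares are not on like sets. Unlike pairs included ARF6 (both lists) and ARF8 (neither), and ARF19 (both) and ARF7 (neither). Like calls depended on the window. With 5 kb, both genes were in both lists for IAA3 and IAA4, IAA12 and IAA13, and IAA20 and IAA30. The same held for ARF7 and ARF19 and for ARF11 and ARF18, while the calls of IAA6 and IAA19 became unlike. The share over all pairs was computed for 3 kb only, so sister pairs were not shown to agree less than other pairs.

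The other genes of auxin perception and early response were read in the same way, and 13 of 25 protein-coding ones had a pistil summit and 12 an IM summit, against 21.3% and 23.7% of all protein-coding genes. Of 6 receptor genes, 4 had a pistil summit and 3 an IM summit. The strongest summits of TIR1 had folds of 3.46 in pistil and 5.47 in IM (1948 and 87 bp away), and those of AFB4 4.87 and 6.95 (670 and 652 bp). TIR1 had 2 IM summits, and the place of the weaker one was not compared with the pistil summit. AFB2 had 3.61 and 3.36, AFB3 3.04 in pistil only, and AFB1 and AFB5 had none. Of 5 TOPLESS corepressor genes, TPR1 (5.33 and 4.83) and TPL (3.44 and 4.04) were in both lists and TPR3 in IM only (3.27). The strongest TPR1 and TPL summits of each list lay between 2512 and 2683 bp away. Of 5 genes of the SCF ligase and its activation, ECR1 had folds of 5.05 and 4.42 and AXR1 one of 4.11 in pistil only. The core subunit genes ASK1, CUL1 and RBX1 had no summit.

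Several GH3 enzymes join auxin to amino acids and so remove it. Of the 9 genes of the GH3 family read here, 5 had a pistil summit and 5 an IM summit, 4 of them both. GH3.6 (DFL1) led in both, with folds of 12.4 in pistil and 7.13 in IM at 1597 and 1575 bp (percentiles 99.1 and 96.8). GH3.3 had folds of 9.36 and 5.20 at 152 and 163 bp, DFL2 6.001 and 4.23 inside the gene, and GH3.5 4.33 and 3.298. GH3.1 had a fold of 4.71 in pistil only and GH3.17 one of 3.02 in IM only. Of 11 genes for small RNAs that act on ARF transcripts, 6 had a pistil and 4 an IM summit. The 9 miRNA genes among them had 5 and 3, against 20.6% and 22.4% of all 326 miRNA genes. MIR390A, whose product starts the making of the small RNAs against ARF2, ETT and ARF4, had folds of 5.07 and 5.28. Their precursor TAS3 had 4.39 and 3.38, and MIR160A 3.77 and 3.28. MIR167A, directed against ARF6 and ARF8, was in the pistil list only (5.26), as were MIR390B (3.86) and MIR160B (3.903), and MIR167D in the IM list only (3.65).

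**Figure D4:**
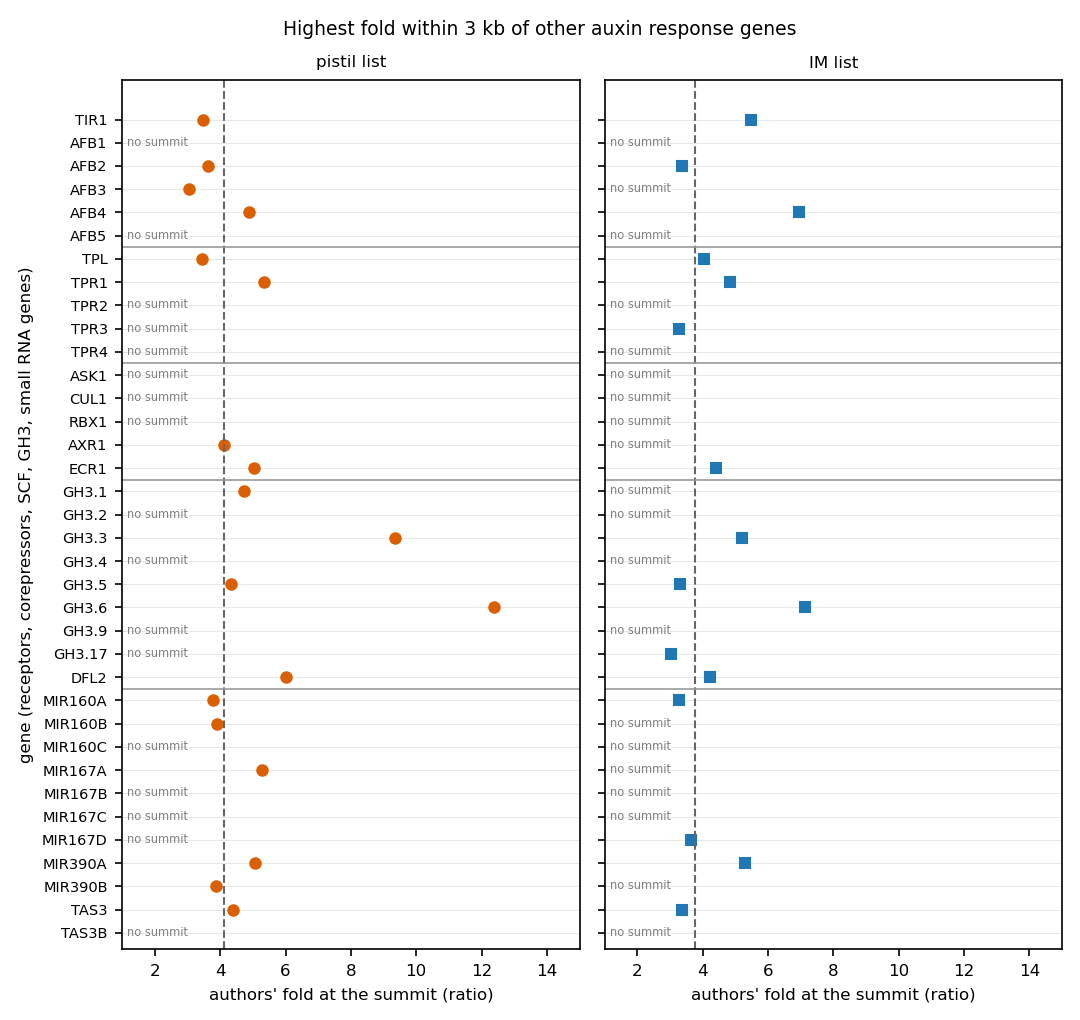
Highest fold at a summit within 3 kb (x axis, ratio) of other genes of auxin perception and early response and of small RNA genes that act on ARF transcripts, in the pistil list on the left and the IM list on the right, with the lists' median folds as dashed lines. GH3.6 has the highest fold of these genes in both lists, 12.4 and 7.13, and the SCF subunit genes ASK1, CUL1 and RBX1 have no summit.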

How the data were processed

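ChIP-seq of FUL-GFP was made in pistils and IM, with 2 replicates and 1 input library each. Per the submitters' processing notes, MACS2 2.1.0, Bowtie 1.1.2, Picard 2.60 and deepTools were used with the build TAIR10; no role is stated. The authors deposited a narrowPeak list for each tissue, and its peak names show that replicates were pooled for calling. The fold at the summit (a ratio), the −log10 p and the score, which is the same −log10 p times 10 without its decimals, are deposited values of the authors. Selection of peaks, caller settings and read depth are unknown. A stricter selection would remove weak peaks first, so a missing peak is not missing binding.

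Genes came from the RefSeq table of TAIR10.1, which holds no strand. Its coordinates are not printed. Its register with the peaks was tested by shifting: 26.0% (pistil) and 29.5% (IM) of summits lay inside genes in place, and at least 56.3% and 60.2% after shifts of 2 to 10 kb. Summits were assigned with Python 3.11.15 and pandas 2.3.3, checked on simulated summits. Shared peaks overlapped by at least 1 bp. No test was run, since each tissue has 1 list. Members, classes and lists were chosen with earlier results of these data known. Every member was accounted for. Those in both lists, or above the median fold of a list, were described by the fold and place of their summits. Peak coordinates were given for most of their sites, and −log10 p and width for few. Other pathway genes were named where a summit lay within 3 kb. TAS3C had no match, and 5 pathway genes with ambiguous names were matched by locus. Alternatives were windows of 1 and 5 kb, the nearest gene alone, folds above the median, a common limit on p, any base of the peak, stricter overlap, family membership, and leaving out the chromosome 1 ARF group.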

Additional observations from a re-analysis of the deposited data

How the results depend on the processing

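No paired analysis was possible because each deposited list pools the 2 replicates of its tissue. For the same reason no replicate could be left out. The planned window that differs before and after the gene was not run, since the gene table used holds no strand. The counts of each family moved by over 1.5 times in 3 cases: IM ARF genes to 6 with a window of 1 kb, against 10 in the main count, and Aux/IAA genes to 10 in pistil and 7 in IM with folds above the median, against 18 and 15, since that setting drops peaks. It also left 11 members in both lists, 5 in pistil only, 3 in IM only and 33 in neither, against 19, 8, 6 and 19. Members in both lists were 12 with 1 kb, those in pistil only 5 with 5 kb, and those in IM only 3 with a common limit on p. Other counts of a family or a call stayed within 1.5 times, as did members with overlapping sites (15 with summits within 200 bp, 18 with an overlap of at least 50% of the shorter peak, against 18).

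The share over all genes moved with the settings too. With 1 kb it was 11.9% in pistil and 13.9% in IM. Aux/IAA genes then stood at 44.8% and 37.9%, and ARF genes at 26.1% in either list. Both families also stayed above the share of all genes with 5 kb and by the nearest gene. The split of all genes by call was computed for the main setting only. In the main count, the Aux/IAA share minus the ARF share was 22.9 percentage points in pistil and 8.25 in IM. In pistil it kept its direction, at 10.04 by the nearest gene, 8.40 with folds above the median and 2.07 without the chromosome 1 ARF group, an alternative chosen after seeing the data. In IM it was 12.4 with 5 kb and 3.15 by the nearest gene. It turned to -6.30 with folds above the median, -0.30 with a common limit on p and -14.9 without that ARF group. Pistil minus IM was 3 Aux/IAA genes. It turned to -1 with 5 kb and was 8 with the common limit, which removes IM peaks only. For ARF genes it was -1, and 0 with 1 kb or the nearest gene, -2 with 5 kb and 1 with the common limit. Apart from what the settings themselves remove, the cause was not tested.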
